A study of Homo sapiens with 12 samples.

Results

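The genes described here are the membrane transporters of the ATP-binding cassette (ABC), SLC22 and SLCO families. They were taken from the platform annotation by symbol, as the ABCA to ABCG genes, the SLC22A genes and the SLCO genes, leaving out ABCA1, ABCC2 and SLCO1B1. The rule found 59 of the 13881 measured genes: 35 ABC genes, 17 SLC22 genes and 7 SLCO genes. The ABC genes comprised 9 of subfamily A, 7 of B, 10 of C, 3 of D, 1 of E, 1 of F and 4 of G. Of the 59 genes, 57 were read by 1 probe, and SLC22A14 and SLCO1A2 by 2 probes each. ABCC13 is a transcribed pseudogene, and ABCB1, ABCG8, SLCO1B3 and SLCO2B1 were not analysed here. With current symbols the rule would find 58 genes, because SLC22A20 is now the pseudogene SLC22A20P, SLC22A18 is now SLC67A1, and the gene listed as C6orf85 is now SLC22A23.

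Cells labelled HepG2, a line from a human liver carcinoma grown in DMEM with fetal bovine serum, were given glycyrrhizin, silymarin or ursodeoxycholic acid, or were mock-treated as the control. Each agent was given at 25 µM, and each of the 4 groups had 3 arrays. Glycyrrhizin is the sweet saponin of liquorice, silymarin the flavonolignan extract of milk thistle seed, and ursodeoxycholic acid a bile acid used in cholestatic liver disease. The labels give neither the length of treatment nor whether the arrays of a group were separate cultures, so the p-values may reflect technical spread between arrays alone.

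ABC proteins bind and hydrolyse ATP, and most of them move lipids, bile constituents, drugs or conjugates out of the cell or into an organelle. SLC22 and SLCO proteins are carriers that use no ATP: the SLC22 family takes up organic cations, carnitine, organic anions and urate, and the SLCO family bile acids, hormone conjugates and many drugs. In hepatocytes, SLC22 and SLCO carriers of the sinusoidal membrane take solutes from the blood, and ABC pumps of the canalicular membrane secrete bile salts, phospholipid and sterols into bile.

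Markers of hepatocytes lay on both sides of the median gene in these cells. Of 18 hepatocyte markers listed, 14 were measured, with a median log2 intensity of 6.79, against 6.70 for the median gene. APOB read 8.89, TTR 7.77, APOA1 7.66, APOA2 5.17 and APOH 3.55. Of 16 markers of neuroblasts and sympathetic neurons, 11 were measured, with a median of 8.77, and 8 of them lay above the median gene. TH read 12.49, STMN2 11.08 and ISL1 10.15, whereas CHGB read 5.66, GAP43 5.20 and ELAVL4 3.28. Single markers of other cell types were also bright, such as GATM of the kidney tubule (10.75), CD8A of T cells (10.25) and COL1A1 of fibroblasts (10.13). Each was the brightest of its list. The list medians were 7.33 for the kidney tubule, 5.49 for leukocytes and 6.23 for fibroblasts and stellate cells. In the same order, 4 of 5, 3 of 7 and 2 of 6 measured markers lay above the median gene. The summed intensity of the hepatocyte markers overlapped between groups, at 1831 to 2010 on glycyrrhizin arrays, 1735 to 2171 on silymarin arrays, 1853 to 2477 on ursodeoxycholic acid arrays and 1971 to 2156 on control arrays. Across probes, the median correlation was 0.934 between arrays of a group and 0.933 between arrays of different groups. Ursodeoxycholic acid array 1 and silymarin array 2 had the lowest median r with the others, at 0.923 and 0.925.

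The transporters lay across the whole range of brightness. Their median log2 intensity was 6.76, and 30 of the 59 lay above the median gene. Intensities of different probes are not on a common scale of RNA, so these values place a probe among all probes and do not rank the genes by transcript number. The 10 brightest were SLC22A7 (10.43), the brain cholesterol transporter ABCG4 (9.75), SLC22A17 (9.74), ABCC3 (9.49), SLC22A13 (9.36), ABCC5 (9.34), SLCO3A1 (9.34), SLC22A18 (8.78), SLC22A6 (8.41) and ABCF3 (8.35). The 5 dimmest were ABCD2 (3.40), ABCA13 (3.98), SLC22A11 (4.04), ABCE1 (4.12) and ABCG1 (4.38). The median was 7.72 for the SLC22 genes, 6.76 for the ABC genes and 5.46 for the SLCO genes, of which 1, SLCO3A1, lay above the median gene. No detection call accompanied the values, and whether a dim probe rose above background is therefore unknown.

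The spread between arrays limited what could be seen. The SD of the arrays around their group means had a median of 0.51 log2 units over the transporters and 0.43 over all genes. In the dimmest of 4 bins holding equal numbers of genes it was 0.75 for the 16 transporters there and 0.67 for all genes, and in the brightest bin it was 0.35 for 10 transporters and 0.24 for all genes. SLC22A17, reported as a receptor for lipocalin-2, varied least, with an SD of 0.13, followed by ABCA2 at 0.18. ABCA13 varied most, at 1.52, then the peroxisomal fatty acid transporter ABCD2 at 1.36 and the cholesterol exporter ABCG1 at 1.27.

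**Figure D1:**
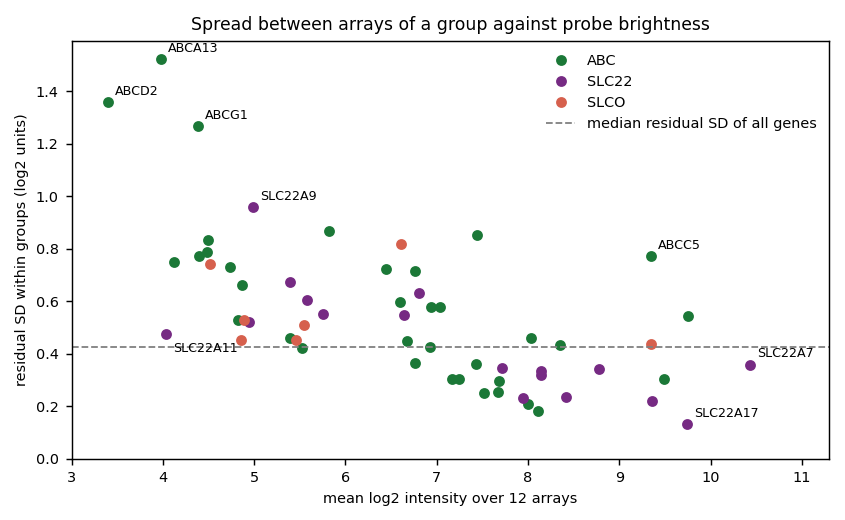
Each point is 1 of the 59 transporter genes, with its mean log2 intensity over 12 arrays on the horizontal axis and the SD of its arrays around their group means, in log2 units, on the vertical axis. The dashed line is the median over all genes, 0.43. ABCA13 (1.52), ABCD2 (1.36) and ABCG1 (1.27) lie at the dim end with the widest spread, and SLC22A17 (0.13) lies lowest.

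Single arrays stood far from the rest for some genes. ABCA13 read 0.74 on control array 3 against a median of 4.01 over the 12 arrays. SLC22A9 read 1.97 on control array 1 against a median of 5.17, and the lysosomal vitamin B12 transporter ABCD4 read 5.48 there against 7.74. ABCG1 read 1.46 on glycyrrhizin array 2 against 4.48. On ursodeoxycholic acid array 1, the organic anion exporter ABCC5 read 7.31 against 9.42 and SLCO4A1 read 4.66 against 6.99.

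Against control, the transporters showed 1 pronounced difference, a lower SLC22A11 signal with ursodeoxycholic acid, which did not pass the threshold in that comparison. Limma called 0 of the 59 transporters at an adjusted p of 0.05 with glycyrrhizin, 0 with silymarin and 0 with ursodeoxycholic acid, and it called 0% of all genes with each agent. At an unadjusted p under 0.05 there were 3 transporters with glycyrrhizin, where 5.37% of all genes were under it. With silymarin there was 1, against 4.89% of all genes, and with ursodeoxycholic acid 3, against 5.29%. The 3 glycyrrhizin arrays did not overlap the 3 control arrays for 5 transporters, where 12.7% of all genes did not overlap. The silymarin arrays did not overlap the control arrays for 2 (10.8% of all genes), nor the ursodeoxycholic acid arrays for 5 (9.5%). These numbers are near or below the share over all genes.

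The median transporter differed from control by 0.07 log2 units with glycyrrhizin, 0.09 with silymarin and 0.06 with ursodeoxycholic acid, where the median of all genes was 0.02 with each agent. Differences above 0 were found for 34 transporters with glycyrrhizin (52.5% of all genes), 38 with silymarin (52.3%) and 35 with ursodeoxycholic acid (52.3%). A difference of 2-fold or more was measured for 2 transporters with glycyrrhizin (3.85% of all genes), 3 with silymarin (4.12%) and 5 with ursodeoxycholic acid (4.99%). The 95% interval of the difference lay within 2-fold either way for 23 transporters with glycyrrhizin (47.7% of all genes), 26 with silymarin (48.3%) and 23 with ursodeoxycholic acid (47%). For the others the arrays leave a 2-fold difference possible. In bulk RNA, less transcript per cell cannot be told apart from fewer cells that hold it.

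**Figure D2:**
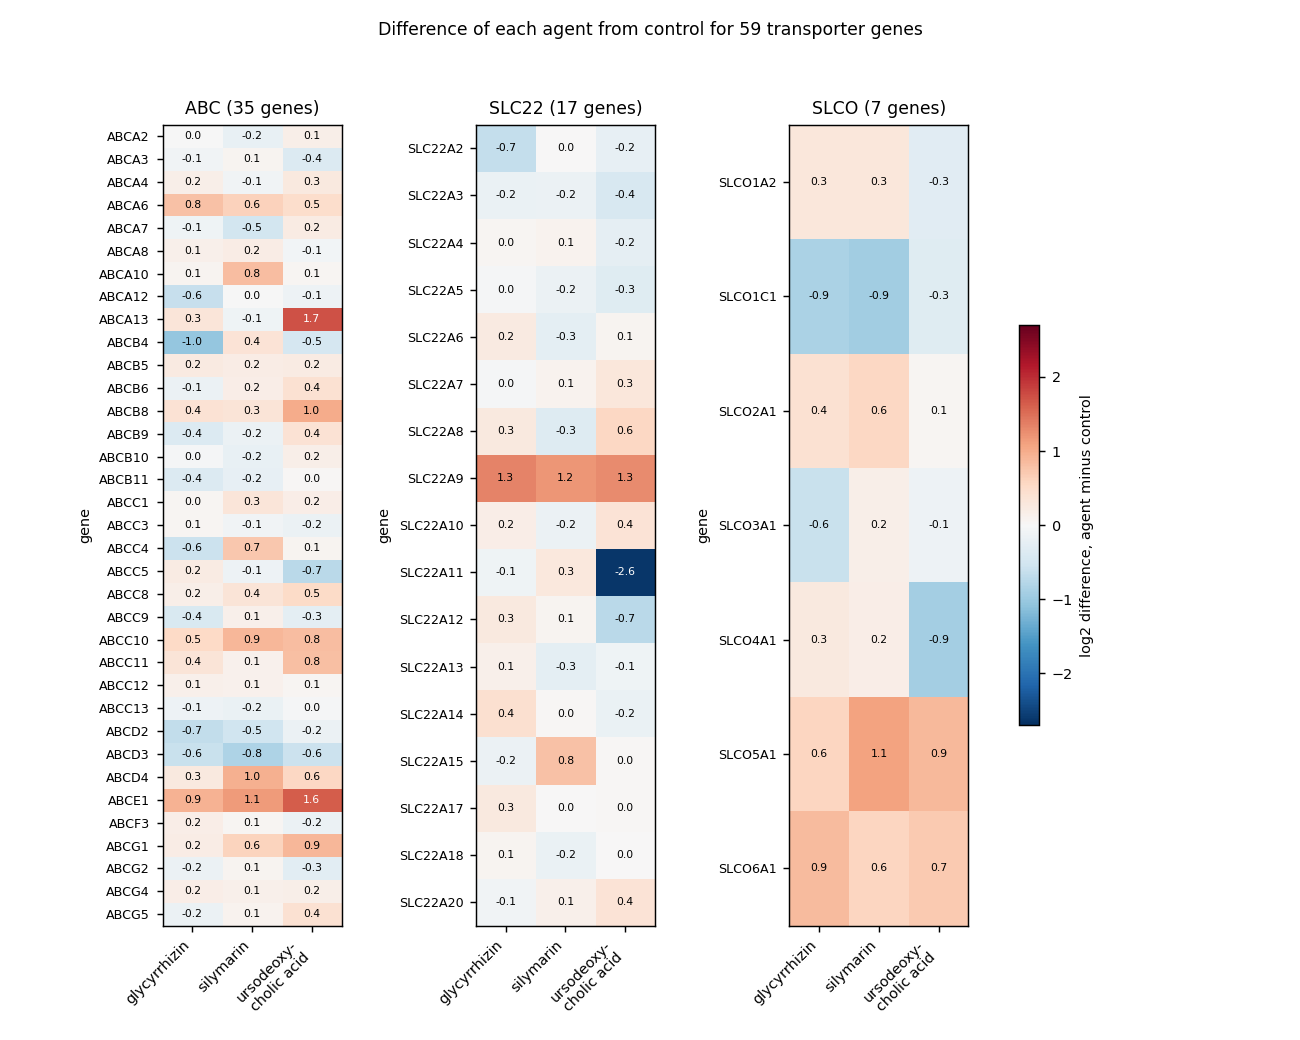
Log2 difference of each agent from control for the 35 ABC, 17 SLC22 and 7 SLCO genes, with the value in each cell and the colour running from blue (lower with the agent) to red (higher with the agent). The darkest cell is SLC22A11 with ursodeoxycholic acid (−2.64), and no difference in the map passed an adjusted p of 0.05.

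SLC22A11, the organic anion transporter OAT4 of placenta and kidney, stood apart from the rest of the SLC22 family on the ursodeoxycholic acid arrays. Its log2 intensity was 4.85, 4.24 and 4.52 on glycyrrhizin arrays and 4.66, 5.15 and 5.00 on silymarin arrays. It was 2.17, 1.46 and 2.42 on ursodeoxycholic acid arrays, against 4.01, 4.54 and 5.41 on control arrays. All 3 ursodeoxycholic acid arrays lay below the other 9. The difference of ursodeoxycholic acid from control was −2.64 (SE 0.37, 95% interval −3.45 to −1.82), with a limma p of 2.122e-05 and an adjusted p of 0.0738. Glycyrrhizin differed from control by −0.11 (adjusted p = 0.999) and silymarin by 0.29 (adjusted p = 0.977).

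On the linear scale the ursodeoxycholic acid arrays read 4.5, 2.75 and 5.33 intensity units for SLC22A11, against 16.1, 23.2 and 42.4 on the control arrays. On the ursodeoxycholic acid arrays, 0.584, 0.281 and 0.818% of probes were dimmer, against 5.84, 11.7 and 29.1% on the control arrays. These readings are dim in both groups, and the ursodeoxycholic acid readings are not shown to lie above background. The log2 difference is therefore one between readings, and its size is no measure of the change in transcript. Adding 50 units before the log reduced the difference from control to −0.50.

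SLC22A12, the kidney urate transporter URAT1, is the neighbour of SLC22A11 on chromosome 11, with 0 genes between them. It read 5.89, 5.18 and 6.94 on ursodeoxycholic acid arrays, against 6.39, 6.96 and 6.87 on control arrays. The arrays overlapped, and the difference was −0.74 (SE 0.42, adjusted p = 0.925), or from −1.21 to −0.33 over single arrays left out. With glycyrrhizin it read 6.81, 7.04 and 7.17, and with silymarin 7.38, 6.74 and 6.32.

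Of the other 7 organic anion and urate carriers, 5 lay above control with ursodeoxycholic acid, SLC22A12 and SLC22A13 (−0.12) lay below it, and none passed the test. The median over all 8, SLC22A11 included, was 0.18. SLC22A7, the organic anion carrier of the liver sinusoid, read 10.64, 10.48 and 10.80 on ursodeoxycholic acid arrays, against 9.87, 10.45 and 10.69 on control arrays. The paired kidney uptake carriers SLC22A6 and SLC22A8, which adjoin on chromosome 11, differed from control by 0.07 and 0.56 with ursodeoxycholic acid. SLC22A9, a liver carrier of sulfated steroids, was 1.34 above control with glycyrrhizin (SE 0.69, adjusted p = 0.943). Its glycyrrhizin arrays read 5.19, 5.61 and 5.32, against 1.97, 4.73 and 5.41 on control arrays, and the difference was 0.31 without control array 1 and 2.02 without control array 3.

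None of the 4 organic cation and carnitine carriers passed the test with any agent. With glycyrrhizin 3 of 4 lay below control, with a median difference of −0.11, with silymarin 2 of 4 (−0.07) and with ursodeoxycholic acid 4 of 4 (−0.29). The kidney organic cation transporter SLC22A2 read 5.60, 4.58 and 5.26 on glycyrrhizin arrays, against 5.51, 5.55 and 6.34 on control arrays, a difference of −0.65 (SE 0.45, adjusted p = 0.967). SLC22A3, a polyspecific organic cation transporter, read 7.52, 7.92 and 8.27 on ursodeoxycholic acid arrays, against 7.92, 8.37 and 8.72 on control arrays, and the difference of −0.44 had an adjusted p of 0.925. It ran from −0.64 to −0.24 over single arrays left out. The carnitine transporter SLC22A5 read 7.78, 7.21 and 7.56 on ursodeoxycholic acid arrays, against 7.78, 7.74 and 8.03 on control arrays. Its neighbour on chromosome 5, the ergothioneine transporter SLC22A4, read 8.02, 8.01 and 8.02 with glycyrrhizin and 7.91, 7.94 and 8.05 in control.

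Among the remaining SLC22 genes, SLC22A15 had the lowest p-value, with silymarin. It read 5.89, 5.03 and 5.77 on silymarin arrays, against 4.33, 4.67 and 5.32 on control arrays, a difference of 0.79 (SE 0.40, adjusted p = 0.977). SLC22A13, a urate and nicotinate carrier of the organic anion group, differed from control by −0.27 with silymarin (SE 0.22, adjusted p = 0.977), or from −0.41 to −0.17 over single arrays left out. The imprinted SLC22A18 read between 8.20 and 9.16 over the 12 arrays, and its differences from control ran from −0.17 to 0.07.

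RefSeq held promoter windows for 39 of the 59 transporters, and 3 are shown because these genes come back in the comparisons below. Each is the 250 bases before the start of transcription in GRCh38.p14: chr11:64590970-64591219, plus strand, for SLC22A12, chr1:115976263-115976512, plus strand, for SLC22A15 and chr4:145098061-145098310, plus strand, for ABCE1. Capitals mark matches, on either strand, to GGGCGG (GC box), GCGTG (the core bound by the aryl hydrocarbon receptor) and TGACGTCA (cAMP response element).
SLC22A12: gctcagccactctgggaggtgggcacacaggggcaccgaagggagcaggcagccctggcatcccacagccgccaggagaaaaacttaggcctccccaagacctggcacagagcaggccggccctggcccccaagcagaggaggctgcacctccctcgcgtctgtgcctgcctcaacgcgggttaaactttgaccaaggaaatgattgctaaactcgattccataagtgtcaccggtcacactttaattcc
SLC22A15: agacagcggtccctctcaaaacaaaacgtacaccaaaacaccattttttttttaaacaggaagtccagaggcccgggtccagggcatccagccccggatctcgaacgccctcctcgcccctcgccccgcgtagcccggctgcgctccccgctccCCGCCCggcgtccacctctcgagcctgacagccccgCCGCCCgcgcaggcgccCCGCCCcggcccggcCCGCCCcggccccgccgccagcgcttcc
ABCE1: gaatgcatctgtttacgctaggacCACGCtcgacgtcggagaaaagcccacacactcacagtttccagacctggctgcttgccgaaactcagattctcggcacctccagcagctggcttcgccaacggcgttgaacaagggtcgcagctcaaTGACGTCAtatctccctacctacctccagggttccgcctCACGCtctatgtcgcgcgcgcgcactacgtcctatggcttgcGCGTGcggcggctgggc

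The window of SLC22A15 is 71.2% G or C with 30 CpG pairs, and holds 4 GC boxes. That of ABCE1 is 60.0% G or C with 24 CpG pairs. It holds 3 GCGTG matches and 1 TGACGTCA, a palindrome that reads alike on both strands, 98 to 91 bases before the start. That of SLC22A12 is also 60.0% G or C but has 9 CpG pairs and no match to the 7 motifs searched. Over all 27305 windows the median was 58.0% with 11 CpG pairs, and over the 39 transporter windows 60.0% with 13.

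GGGCGG was in 51.3% of the transporter windows and 42.3% of all windows, GCGTG in 30.8% and 31.9%, and TGACGTCA in 2.56% and 1.77%. The other motifs searched were CCAAT (23.1% and 33.0%), TATAAA (10.3% and 11.1%), the antioxidant response core TGACNNNGC (12.8% and 11%) and the HNF1 half-site GTTAAT (5.13% and 6.22%). GGGCGG and TGACGTCA were added to the search after the windows had been read. These matches describe the letters of the windows and were not set against the intensities.

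**Figure D3:**
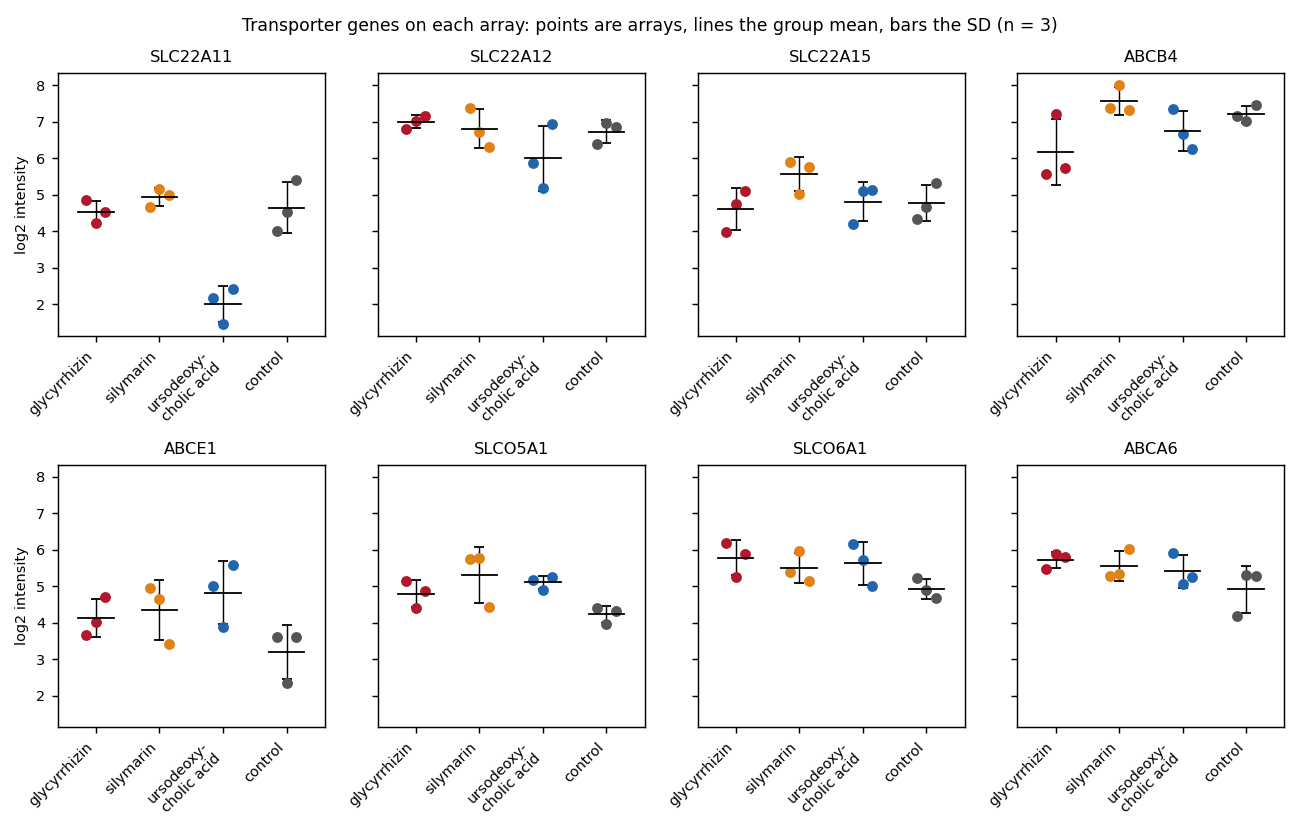
Log2 intensity of 8 transporter genes, 1 point per array, in the order glycyrrhizin, silymarin, ursodeoxycholic acid and control, with the group mean as a line and the SD over 3 arrays as a bar. The 3 SLC22A11 points for ursodeoxycholic acid (1.46 to 2.42) lie below all other arrays of that gene, and in the other panels no difference passed the threshold.

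Of the ABC genes, ABCB4 had the lowest p-value for a difference below control with glycyrrhizin. ABCB4 is the floppase that moves phosphatidylcholine into bile. It read 5.56, 7.22 and 5.73 on glycyrrhizin arrays, against 7.16, 7.01 and 7.47 on control arrays. Glycyrrhizin arrays 1 and 3 lay below every control array and array 2 among them, and the difference was −1.04 (SE 0.44, 95% interval −2.00 to −0.08, adjusted p = 0.861). Over single arrays left out it ran from −1.57 (without glycyrrhizin array 2) to −0.74. ABCB4 read 7.39, 8.01 and 7.33 with silymarin and 7.35, 6.68 and 6.26 with ursodeoxycholic acid.

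The other canalicular exporters measured were the bile salt export pump ABCB11, the drug and urate pump ABCG2 and the sterol half-transporter ABCG5. With ABCB4 they make 4 of 6 listed, and 4 of 4 lay below control with glycyrrhizin, with a median difference of −0.27. With silymarin 1 of 4 and with ursodeoxycholic acid 2 of 4 lay below control. ABCB11 read 6.71, 6.09 and 7.28 with glycyrrhizin and 7.24, 7.12 and 6.92 with ursodeoxycholic acid, against 7.25, 6.97 and 6.97 in control. ABCG2 differed from control by −0.16, 0.07 and −0.28 with glycyrrhizin, silymarin and ursodeoxycholic acid. None of the 4 passed the test with any agent.

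Of the 13 lipid transporters measured, 7 lay above control with glycyrrhizin, 8 with silymarin and 9 with ursodeoxycholic acid, with medians of 0.07, 0.09 and 0.15. ABCA6 is one of 3 measured genes of a chromosome 17 cluster, with ABCA8 and ABCA10. It read 5.47, 5.89 and 5.79 on glycyrrhizin arrays, against 4.18, 5.30 and 5.29 on control arrays. The arrays did not overlap, and the difference was 0.80 (SE 0.36, adjusted p = 0.928), or 0.42 without control array 1. ABCA8 differed by 0.14 and ABCA10 by 0.07 with glycyrrhizin. ABCA4, the retinoid flippase of photoreceptors, and ABCA2 were steady: over the 3 agents the differences from control ran from −0.09 to 0.26 for ABCA4 and from −0.21 to 0.15 for ABCA2.

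Of the 9 drug and conjugate exporters measured, 7 lay above control with glycyrrhizin, 7 with silymarin and 6 with ursodeoxycholic acid. The medians over the 9 were 0.13, 0.11 and 0.07. Over all genes 52.5, 52.3 and 52.3% lay above control, and the 3 comparisons share the control arrays. None of the 9 passed the test. ABCC3, a basolateral exporter of bile acids and glucuronides, read 9.42, 9.65 and 9.71 with glycyrrhizin, 9.23, 9.69 and 9.41 with silymarin and 9.77, 9.59 and 8.76 with ursodeoxycholic acid, against 9.59, 9.49 and 9.54 in control. ABCC1, an exporter of glutathione conjugates, differed by 0.05 with glycyrrhizin, 0.33 with silymarin and 0.17 with ursodeoxycholic acid. ABCC4, an exporter of cyclic nucleotides and bile acids, differed by −0.58 with glycyrrhizin, 0.74 with silymarin and 0.07 with ursodeoxycholic acid. The potassium channel regulators ABCC8 and ABCC9 differed by 0.52 and −0.26 with ursodeoxycholic acid.

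The organelle transporters had a median log2 intensity of 4.82 over the 7 measured, of which 2 lay above the median gene. With glycyrrhizin 2 of 7 lay above control, with silymarin 3 and with ursodeoxycholic acid 5, at medians of −0.15, −0.15 and 0.40. The peroxisomal ABCD3 read 4.30, 3.40 and 4.52 on silymarin arrays, against 3.36, 5.73 and 5.60 on control arrays. Its difference was −0.82 (SE 0.57, adjusted p = 0.977). Over single arrays left out it ran from −1.59 (without control array 1) to −0.41 (without control array 2).

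ABCE1, the ATPase that splits ribosomes at the end of translation and moves no solute, was among the dimmest probes. It read 3.67, 4.01 and 4.71 with glycyrrhizin, 4.95, 4.66 and 3.40 with silymarin and 5.01, 3.87 and 5.59 with ursodeoxycholic acid, against 3.61, 2.35 and 3.61 in control. All 9 values of the agents except silymarin array 3 lay above every control array. The difference was 0.94 with glycyrrhizin (adjusted p = 0.948), 1.15 with silymarin (SE 0.55, adjusted p = 0.977) and 1.63 with ursodeoxycholic acid (SE 0.55, 95% interval 0.42 to 2.85, adjusted p = 0.861). The 3 comparisons share the control arrays, of which array 2 was the lowest of the 12, and without it the silymarin difference was 0.72. ABCF3, the other translation protein measured, differed by 0.18 with glycyrrhizin, 0.06 with silymarin and −0.16 with ursodeoxycholic acid.

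The SLCO genes lay above control in 5 of 7 cases with glycyrrhizin, 6 with silymarin and 3 with ursodeoxycholic acid, with medians of 0.30, 0.30 and −0.14. SLCO5A1, whose substrates are little known, read 5.73, 5.77 and 4.42 with silymarin and 5.18, 4.90 and 5.24 with ursodeoxycholic acid, against 4.40, 3.97 and 4.31 in control. Neither agent's arrays overlapped the control arrays. Silymarin differed from control by 1.08 (SE 0.36, 95% interval 0.30 to 1.87, adjusted p = 0.930) and ursodeoxycholic acid by 0.88 (SE 0.36, adjusted p = 0.925).

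SLCO6A1, a carrier found mainly in testis, read 6.20, 5.26 and 5.89 with glycyrrhizin and 6.16, 5.71 and 5.01 with ursodeoxycholic acid, against 5.21, 4.90 and 4.67 in control. The glycyrrhizin arrays did not overlap the control arrays, and the difference was 0.86 (SE 0.35, adjusted p = 0.861). With ursodeoxycholic acid it was 0.70 (adjusted p = 0.925), or 0.43 without array 1 of that agent. SLCO1C1, a thyroxine carrier of the blood-brain barrier, read 4.08, 3.62 and 4.86 with glycyrrhizin and 2.81, 4.82 and 4.68 with silymarin, against 5.29, 4.79 and 5.06 in control. Its differences were −0.85 with glycyrrhizin (SE 0.54, adjusted p = 0.961) and −0.94 with silymarin (SE 0.54, adjusted p = 0.977), the second −0.30 without silymarin array 1. SLCO3A1, a prostaglandin carrier, read 8.37, 9.59 and 8.71 with glycyrrhizin, against 9.14, 9.52 and 9.80 in control, a difference of −0.60 (adjusted p = 0.948) that ran from −0.95 to −0.33 over single arrays left out. SLCO4A1, a thyroid hormone carrier, differed from control by −0.92 with ursodeoxycholic acid, where array 1 stood low.

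Between the agents, SLC22A11 was the 1 transporter that passed the threshold, and it did so in the comparison of silymarin with ursodeoxycholic acid. The silymarin readings exceeded the ursodeoxycholic acid readings by 2.92 log2 units (SE 0.37, 95% interval 2.11 to 3.74, limma adjusted p = 0.0475), and all 3 silymarin arrays lay above all 3 ursodeoxycholic acid arrays. In that comparison 1 of the 59 transporters and 0.0288% of all genes were called. The call was lost in 15 of 23 other fits that held the gene. The adjusted p was 0.137 with the replicate number as a block, 0.500 with the 2 compared groups alone and 0.180 without silymarin array 3. With 50 units added before the log, the difference was 0.58 and the adjusted p 0.249, so its size depends on how the bottom of the scale is treated. The glycyrrhizin readings exceeded those of ursodeoxycholic acid by 2.52 (SE 0.37, adjusted p = 0.388), and glycyrrhizin differed from silymarin by −0.40 (SE 0.37, adjusted p = 0.827).

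Apart from that call, limma called 0 transporters between glycyrrhizin and silymarin, where 0.0504% of all genes were called, and 0 between glycyrrhizin and ursodeoxycholic acid, where 0% were. At an unadjusted p under 0.05 there were 2 transporters between glycyrrhizin and silymarin (9.31% of all genes), 2 between glycyrrhizin and ursodeoxycholic acid (4.68%) and 1 between silymarin and ursodeoxycholic acid (8.04%). Arrays did not overlap for 8 transporters between glycyrrhizin and silymarin (18.2% of all genes), 3 between glycyrrhizin and ursodeoxycholic acid (11.6%) and 7 between silymarin and ursodeoxycholic acid (14.7%). A difference of 2-fold or more was measured for 2 (4.83%), 4 (4.94%) and 3 (6.45%) in the same order of comparisons, and a difference above 0 for 29 (51.3%), 26 (49.6%) and 29 (50%). A test of any difference among the 4 groups called 0 transporters and 0.0216% of all genes. It put 2 transporters under an unadjusted p of 0.05, SLC22A11 (adjusted p = 0.0731) and ABCB4 (adjusted p = 0.723), against 6.71% of all genes.

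Glycyrrhizin and silymarin arrays of ABCB4 did not overlap, as its values above show. The difference of glycyrrhizin from silymarin was −1.40 (SE 0.44, 95% interval −2.36 to −0.44, adjusted p = 0.304). SLC22A15 read 3.98, 4.75 and 5.10 with glycyrrhizin against 5.89, 5.03 and 5.77 with silymarin, a difference of −0.96 (SE 0.40, adjusted p = 0.492). SLCO3A1 differed by −0.75 (adjusted p = 0.553), or −0.49 without glycyrrhizin array 1. In the other direction were SLC22A6 at 0.50 (adjusted p = 0.552), SLC22A13 at 0.40 (adjusted p = 0.642) and SLC22A14 at 0.41 (adjusted p = 0.743).

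Glycyrrhizin exceeded ursodeoxycholic acid in SLC22A12 by 1.0 (SE 0.42, adjusted p = 0.882) and in SLC22A14 by 0.61 (SE 0.28, adjusted p = 0.882). Without ursodeoxycholic acid array 2 the first was 0.59, and without array 3 the second was 0.26. Glycyrrhizin was on the lower side for ABCB9, a lysosomal peptide transporter (−0.76), ABCG5 (−0.58) and ABCB4 (−0.59), with adjusted p-values of 0.882, 0.882 and 0.886. Without glycyrrhizin array 2 ABCB9 was at −0.39, and over single arrays left out ABCG5 ran from −0.99 to −0.32 and ABCB4 from −1.12 to −0.29. All 7 organelle transporters lay below ursodeoxycholic acid with glycyrrhizin, at a median of −0.50 where the median of all genes was near 0. Over all genes, 49.6% lay above ursodeoxycholic acid with glycyrrhizin. The glycyrrhizin differences ran from −0.76 to −0.008. With silymarin, 6 of the 7 lay below ursodeoxycholic acid, at a median of −0.36. Both comparisons share the ursodeoxycholic acid arrays, on which 5 of the 7 lay above control. None of the 7 passed the test in either comparison.

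Silymarin was above ursodeoxycholic acid in SLC22A12 by 0.81 (adjusted p = 0.631) and in SLC22A15 by 0.75 (adjusted p = 0.641). Over single arrays left out, SLC22A12 ran from 0.40 to 1.28, and SLC22A15 was at 0.44 without ursodeoxycholic acid array 1. Silymarin was below ursodeoxycholic acid in SLC22A8, which read 6.92, 5.15 and 6.95 with silymarin against 7.24, 7.04 and 7.44 with ursodeoxycholic acid, a difference of −0.90 (SE 0.47, adjusted p = 0.633). Silymarin array 2 stood low, and without it the difference was −0.31. ABCA2 differed by −0.36 (adjusted p = 0.653), or −0.24 without ursodeoxycholic acid array 2. ABCA13, the most variable transporter, differed by −1.84 with an SE of 1.08 (adjusted p = 0.661), and its interval ran from −4.23 to 0.55. Without ursodeoxycholic acid array 2 the difference was −1.05.

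Both genes with a second probe gave different answers from their probes. The brighter and dimmer probe of SLC22A14, a gene expressed mainly in testis, lay 3.37 log2 units apart. The dimmer probe read 4.50 to 5.51 with glycyrrhizin, 4.78 to 5.82 with silymarin and 4.74 to 5.50 with ursodeoxycholic acid, against 3.74 to 4.32 in control, so all 9 arrays of the agents lay above the control arrays. Its difference from control was 0.96 with glycyrrhizin, 1.24 with silymarin and 1.05 with ursodeoxycholic acid, with adjusted p-values of 0.807, 0.892 and 0.845 over all probes. These comparisons share the control arrays, and the dimmer probe, with a mean of 4.77, is not shown to lie above background. The brighter probe, which represents the gene, differed by 0.44 with glycyrrhizin, 0.03 with silymarin and −0.17 with ursodeoxycholic acid. Between agents the signs of the probes also differed: glycyrrhizin minus silymarin was −0.28 by the dimmer probe and 0.41 by the brighter (0.07 by the mean of both), and glycyrrhizin minus ursodeoxycholic acid was −0.09 by the dimmer and 0.61 by the brighter. Across the 12 arrays the probes of SLC22A14 correlated at −0.02 and those of SLCO1A2, a bile salt and drug carrier, at −0.55, given as a description of arrays that fall into 4 groups. The probes of SLCO1A2 lay 0.01 apart in mean brightness, and its differences of opposite sign included 0.30 and −0.64 with silymarin.

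**Figure D4:**
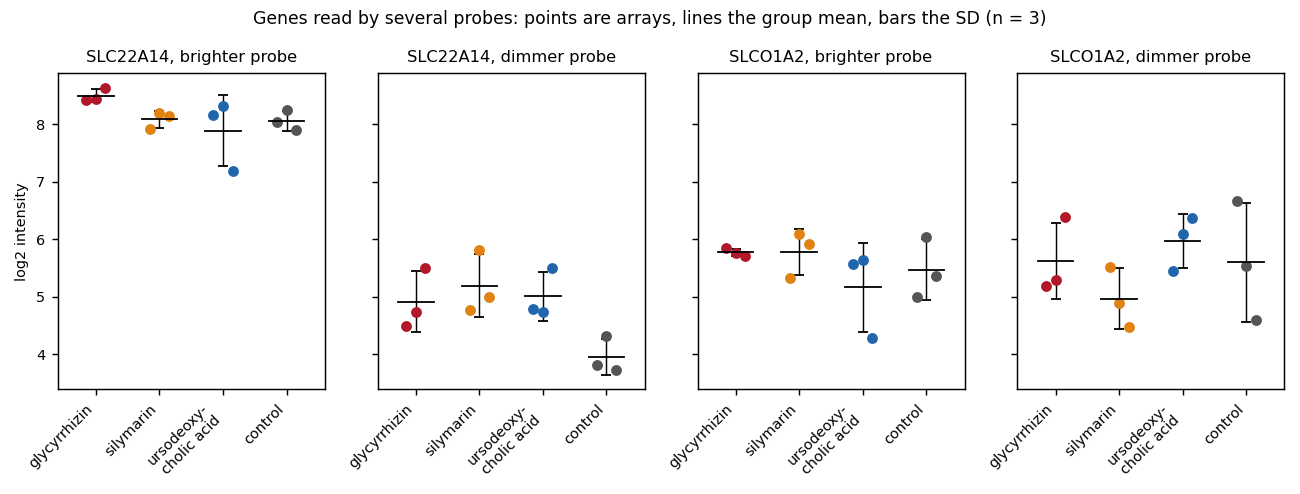
Log2 intensity of the brighter and dimmer probes of SLC22A14 and SLCO1A2, 1 point per array, with group means as lines and the SD over 3 arrays as bars. The dimmer SLC22A14 probe shows 9 agent arrays above the 3 control arrays (3.74 to 4.32), and the brighter probe does not.

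Related genes outside the symbol rule were examined from fixed lists. Of 18 further transporters listed, 14 were measured; 8 lay above control with glycyrrhizin, 8 with silymarin and 10 with ursodeoxycholic acid, with medians of 0.03, 0.32 and 0.30, and none passed the test. SLC15A1, the proton-coupled peptide carrier, read 4.90 to 5.14 with glycyrrhizin and 4.96 to 5.24 with silymarin, against 3.21 to 4.40 in control. Its differences were 1.40 (SE 0.31, adjusted p = 0.473) and 1.44 (SE 0.31, adjusted p = 0.628). The drug and cation exporter SLC47A2 differed by 0.71 with glycyrrhizin (adjusted p = 0.943), the liver uptake carrier SLCO1B1 by −1.06 with silymarin (adjusted p = 0.977) and the nucleoside carrier SLC28A2 by 0.73 with ursodeoxycholic acid (adjusted p = 0.821), where SLC15A1 differed by 0.93 (adjusted p = 0.857).

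CFTR, an ABC protein that forms a chloride channel, read 5.69 to 6.22 with glycyrrhizin, 6.01 to 6.96 with silymarin and 2.71 to 6.76 with ursodeoxycholic acid, against 6.88 to 8.23 in control. Its difference from control was −1.85 with glycyrrhizin (adjusted p = 0.943), −1.17 with silymarin (adjusted p = 0.977) and −2.50 with ursodeoxycholic acid (adjusted p = 0.889), each with an SE of 0.87. A list of regulators of transporter genes held 19 symbols, with NHERF1 also under its old symbol. Of these, 14 were measured and none passed the test. The oxysterol receptor NR1H3 differed by −0.55 and NR1I3, a xenobiotic receptor, by −0.39 with glycyrrhizin. NFE2L2, the factor of the antioxidant response, differed by 0.55 and a second oxysterol receptor, NR1H2, by 0.64 with silymarin. KEAP1, which retains NFE2L2, differed by −0.48 and NR1H3 by −0.53 with ursodeoxycholic acid.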

How the data were processed

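For every array the authors deposited linear intensity values, 1 to a probe, from Cy5-labelled RNA. Limma is named per the submitters' processing notes, but the sources used here do not give its background correction or normalization. At a given rank the 12 arrays spread by a median of 1.23%, so the arrays share nearly 1 distribution, and array medians lay between 85.8 and 86.6. Precision is limited by the number of arrays.

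Of 27561 probes, 15650 carried 1 gene symbol. Symbols were updated for 2355 probes, and the brightest probe over the 12 arrays represented each of 13881 genes. A linear model of log2 values (limma 3.58.1 under R 4.3.3, functions lmFit then eBayes) had a mean for each group and no block, and the spread was moderated over all probes. Tests were two-sided and adjusted over 13881 genes (Benjamini-Hochberg, threshold 0.05). Figures were drawn with matplotlib 3.10.9. The fit was tested on simulated data.

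The transporters, lists and tests were chosen with earlier results of these data known. Genes were named as the 3 with the smallest p in each direction of each of 6 comparisons, any past the threshold, SLC22A11 throughout, the 10 brightest, the 5 dimmest and listed liver and drug transporters. From the lists outside the rule, the 2 genes with the smallest p for each agent were named. Genes named for an outlying array, a steady level or a chromosomal neighbour were picked with their values known. The alternatives tried were scaling, filters, probes, spread, offsets, the replicate number as a block and leaving out each array. Same-numbered arrays did not deviate together.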

Additional observations from a re-analysis of the deposited data

How the results depend on the processing

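Over 39 named differences and 24 other settings, 896 of the values kept their direction and their side of the threshold, 3 turned in sign and 15 lost the call. All 15 lost calls were SLC22A11 between silymarin and ursodeoxycholic acid, a difference fitted in 23 of the settings. No other named difference had a call to lose. The number of transporters called there fell to 0, against 1 in the main setting, with the replicate number as a block (adjusted p = 0.137), with every probe tested (0.0536), with a variance trend and robust estimation (0.0682), with the 2 compared groups alone (0.500) and with offsets of 16 (difference 1.21, adjusted p = 0.140) and 50 (0.58 and 0.249). Leaving out the dimmer 50% of probes also gave 0, because SLC22A11 was among them, and kept 35 of the 59 transporters. The call stood with array weights (0.0254) and with the spread estimated over the genes alone, a setting added after seeing the data (0.0277). It also stood with quantile scaling, equal 75th percentiles, the mean of all probes and a 2-fold limit, settings that could hardly change it. SLC22A11 has 1 probe, its difference was far over 2-fold, and the arrays already shared nearly 1 distribution. Leaving out each array in turn gave 0 to 1 calls, differences of 2.65 to 3.12 and adjusted p-values of 0.0263 to 0.180. The call was lost without control array 2, any glycyrrhizin or silymarin array, or ursodeoxycholic acid array 1 or 2. With array weights, the test over the 4 groups called 1 transporter, SLC22A11 (0.0348), against 0 in the main setting. The small SLC22A11 differences turned in sign without 1 array: silymarin from control was −0.035 without control array 1 (range over single arrays left out −0.035 to 0.66), and glycyrrhizin from control was 0.27 without control array 3 and 0.037 without glycyrrhizin array 2 (range −0.43 to 0.27). The cause of these moves was not tested. Over all genes the calls ran from 0 to 202 between glycyrrhizin and silymarin (7 in the main setting) and from 0 to 28 between silymarin and ursodeoxycholic acid (4 in the main setting). Against control they ran from 0 to 17 with glycyrrhizin, 0 to 4 with silymarin and 0 to 6 with ursodeoxycholic acid (0 in the main setting), and from 0 to 44 in the test over the 4 groups (3 in the main setting). The labels give no pairing: deviations of the 18 same-numbered pairs of arrays correlated at −0.19 to 0.15, 4 of them over 0.1, and 7 of 12 arrays correlated better with their own number. Depth on an array is its signal over background, and no background was given, so the background under the dim SLC22A11 signal is unknown. The lowest intensity of any probe on the 12 arrays was 1.0.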
